A study of Mus musculus with 15 samples.

Results

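T cell genes were followed in mammary tissue of athymic nude mice. The genes were chosen by name and not by their values, with earlier results of these data known. They were Cd3e, Cd3d, Cd3g, Cd247, Trbc2, Trdc, Cd4, Cd8a and Il7r, together with Foxn1, the gene mutated in nude mice. All 10 names were found among the 52526 gene names in the data, and 9 of the 10 exceeded 1 CPM (a read count scaled to the mapped reads of its library) in at least 1 mouse, against 31.1% (16314) of all names. The samples were left 4th mammary tissue from 15 female nu/nu nude mice (Crl:NU-Foxn1nu). BDE-47, a polybrominated diphenyl ether used as a flame retardant, was given to 7 of them for 16 weeks, starting after 8 weeks of age, at 0.03 mg/kg/d in PEG300 with DMSO, through osmotic mini-pumps implanted under the skin. The other 8 mice carried pumps with vehicle alone. Both groups share the nu allele, so the design holds no mouse with a thymus for comparison. Each library is a single mouse, measured as log2(CPM) of tags from transcript 3′ ends, with every gene under 1 CPM listed at 0.

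The T cell receptor recognises antigen through paired alpha and beta or gamma and delta chains, and it signals through the CD3 proteins and the zeta chain that are bound to it. CD4 and CD8 are the coreceptors that read MHC class II and class I molecules, and the IL-7 receptor carries the survival signal on which resting T cells and innate lymphoid cells depend. FOXN1 is the transcription factor that builds the thymic epithelium and the hair shaft. Mice without it lack a functional thymus and are deeply short of T cells, although T cells that mature outside the thymus accumulate with age.

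Foxn1 was listed at 0 in all 15 mice. At the depth of these libraries, 10061113 to 19575029 mapped reads, 1 CPM corresponds to between 10.1 and 19.6 reads, so a lower level of Foxn1 was not detectable. The nu allele changes the protein, and a count of 3′ tags does not test for it. Nor does a value of 0 mark absence by itself, because 3 of 12 housekeeping genes were also listed at 0 in some mice. Ppia, a cyclophilin, was at 0 in 1 mouse, and Tbp and Pgk1, a general transcription factor and a glycolytic enzyme, in 12 each. Among 4022 genes whose median lay between log2 values of 4 and 7, 6.28% of all values were 0, with a range over mice of 0 to 13.1%.

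T cell genes were concentrated in a pair of vehicle mice. Of the 150 values of the 10 genes, 30 (20%) exceeded 1 CPM, and 17 of these came from vehicle replicates 6 and 8. Vehicle replicate 6 listed 9 of the 10 genes, at log2 values of 3.48 to 8.74, and vehicle replicate 8 listed 8, at 3.24 to 6.85. The other 13 mice listed 0 to 3 genes each. Summed over the 10 genes, vehicle replicate 6 reached 975 CPM (15152 reads) and vehicle replicate 8 405 CPM (4852 reads), against 0 to 44.2 CPM in the other 13 mice. The pair held 90.2% of the summed CPM of all 15 mice, 63.7% in replicate 6 and 26.5% in replicate 8. By gene, their share ran from 70.4% for Cd247 and 84.9% for Trbc2 to 100% for Cd3d, Cd8a and Il7r. It exceeded 80% for 8 of the 9 genes, and for 4.74% of the 16314 genes listed in at least 1 mouse. Both mice listed 8 of the 9, as they did 38.6% of all genes, and for 3 of the 9 no other mouse listed the gene, which held for 0.613% of all genes. The highest value was in replicate 6 for 7 genes and in replicate 8 for 2, while 21.8% of all genes peaked in either mouse. In bulk tissue, more T cells and more of these transcripts per cell cannot be told apart.

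**Figure D1:**
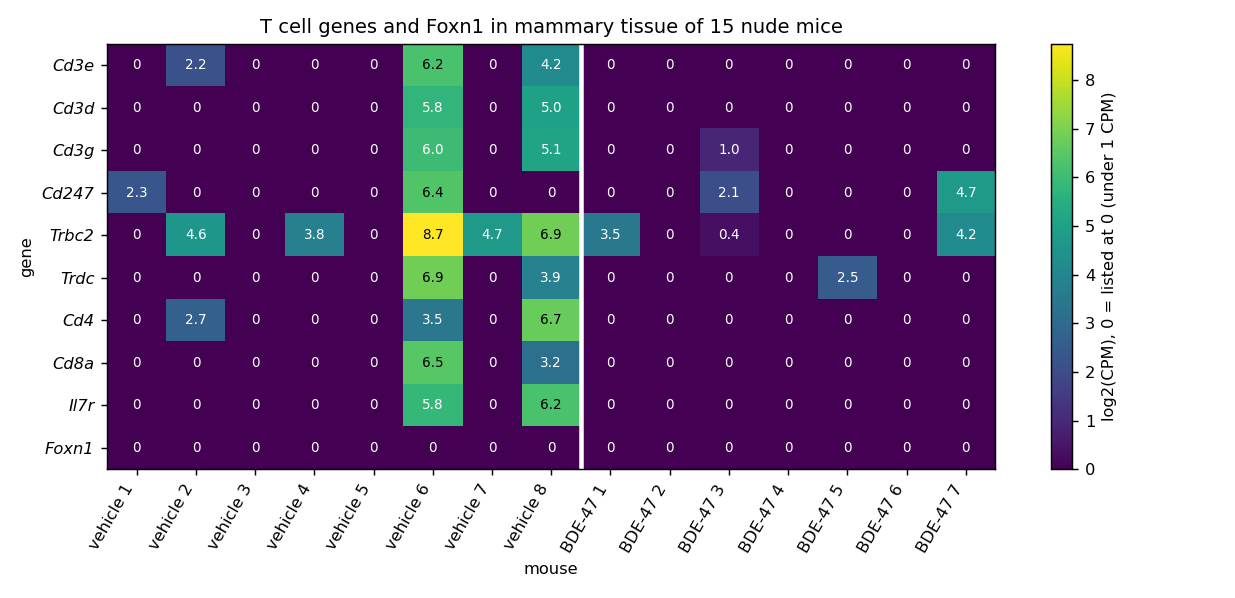
Level of each gene (rows) in each mouse (columns) as log2(CPM), colour scale from 0 (listed at 0, under 1 CPM) to the highest value, with the white line between the 8 vehicle and 7 BDE-47 mice. Filled columns are seen at vehicle replicates 6 and 8, Trbc2 is the row with the most filled cells (8 of 15 mice), and Foxn1 is at 0 throughout.

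Cd3e, Cd3d and Cd3g encode the epsilon, delta and gamma chains of CD3. They are neighbours on chromosome 9 in GRCm38.p6, Cd3g at chr9:44969572-44980431 and Cd3e at chr9:44998735-45009663 on the minus strand with Cd3d between them at chr9:44981769-44987052 on the plus strand, separated by 1337 and 11682 bases. The sequences around their starts are shown because these 3 genes exceeded 1 CPM together in the same pair of mice. Each gives 250 bases before and 30 bases after the annotated start from RefSeq, 5′ to 3′ on the gene's strand, with capitals at matches to 6 short motifs searched on both strands over a window of 300 bases.
Cd3e promoter, chr9:45009582-45009861, minus strand: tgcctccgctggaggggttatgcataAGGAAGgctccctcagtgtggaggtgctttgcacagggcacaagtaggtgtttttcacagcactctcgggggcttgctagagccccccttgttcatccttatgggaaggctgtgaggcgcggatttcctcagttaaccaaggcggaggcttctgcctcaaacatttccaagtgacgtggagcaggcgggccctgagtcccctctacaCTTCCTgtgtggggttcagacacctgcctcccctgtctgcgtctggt
Cd3d promoter, chr9:44981536-44981815, plus strand: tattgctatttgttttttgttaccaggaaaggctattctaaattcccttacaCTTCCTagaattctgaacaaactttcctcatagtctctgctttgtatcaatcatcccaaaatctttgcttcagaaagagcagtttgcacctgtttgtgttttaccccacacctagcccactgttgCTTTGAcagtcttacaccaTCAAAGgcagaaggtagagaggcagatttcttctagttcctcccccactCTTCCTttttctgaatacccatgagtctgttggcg
Cd3g promoter, chr9:44980402-44980681, minus strand: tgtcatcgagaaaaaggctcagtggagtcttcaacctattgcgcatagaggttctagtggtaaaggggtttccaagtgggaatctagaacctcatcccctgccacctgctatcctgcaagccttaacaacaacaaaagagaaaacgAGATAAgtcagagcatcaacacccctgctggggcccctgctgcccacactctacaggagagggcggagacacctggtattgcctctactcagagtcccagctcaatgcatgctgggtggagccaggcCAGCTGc
The Cd3e sequence holds the ETS motif AGGAAG at -224 and -17. In Cd3d the same motif lies at -198 and -5, and the TCF/LEF motif CTTTGA at -73 and -54. The Cd3g sequence holds no ETS match in this window, but the GATA motif AGATAA at -104 and the E-box CAGCTG at 24 after the start. Among 32851 promoter windows of the same length, 35.4% held the ETS motif, 16.0% TCF/LEF, 11.2% GATA and 16.3% the E-box. The RUNX motif TGTGGT (16.8% of windows) and the TATA motif TATAAA (13.6%) were not matched in these 3 genes. These matches describe letters and not binding. A RefSeq window was found for 7 of the 10 genes, all but Trbc2, Trdc and Cd4.

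Cd3e was listed at 6.24 in vehicle replicate 6, 4.22 in vehicle replicate 8 and 2.16 in vehicle replicate 2, and at 0 in the other 12 mice. Cd3d stood at 5.77 in vehicle replicate 6 and 5.00 in vehicle replicate 8 and at 0 in all others. The Cd3g values were 5.98 in vehicle replicate 6, 5.11 in vehicle replicate 8 and 0.96 in BDE-47 replicate 3, where it rested on 27 reads. All 3 CD3 genes were therefore present together in the same 2 mice and in no other mouse, and the remaining values above 0 were of a single chain. Between the pair, replicate 6 was higher than replicate 8 by 2.02 on the log2 scale for Cd3e, 0.76 for Cd3d and 0.87 for Cd3g. These are differences between single libraries with no replicate check.

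Cd247, the zeta chain that carries most of the signalling motifs of the receptor and is shared with natural killer (NK) cells, followed another pattern. It stood at 6.38 in vehicle replicate 6 but was listed at 0 in vehicle replicate 8. It was also listed at 2.34 in vehicle replicate 1, 2.11 in BDE-47 replicate 3 and 4.68 in BDE-47 replicate 7, where none of the CD3 genes was listed except Cd3g in BDE-47 replicate 3. The last 6004 bases of Cd247 (chr1:165779952-165871153) overlap Pou2f1 on the opposite strand, and whether the counting used strand is not given in the sources used here, so reads of the 2 genes could be exchanged there. In the 4 mice that listed Cd247, Pou2f1, an octamer-binding transcription factor, was at 0 in vehicle replicate 6, 4.86 in vehicle replicate 1, 4.03 in BDE-47 replicate 3 and 3.08 in BDE-47 replicate 7. Its highest values, 5.72 in vehicle replicate 5 and 5.36 in vehicle replicate 7, were in mice with Cd247 at 0, and in vehicle replicate 8 it stood at 4.69.

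Trbc2 encodes a constant region of the receptor beta chain and was the most widely listed of the genes, in 8 of 15 mice. In vehicle mice it was listed at 8.74 (replicate 6), 6.85 (replicate 8), 4.72 (replicate 7), 4.63 (replicate 2) and 3.82 (replicate 4), with the other 3 at 0 and a median of 4.22. Among BDE-47 mice the values were 4.22 (replicate 7), 3.51 (replicate 1) and 0.37 (replicate 3), the last from 18 reads, with the other 4 at 0. The highest value in the 6 vehicle mice outside the pair, 4.72, lay close to the highest in BDE-47 mice, and the groups overlapped. Trbc2 and its near-identical neighbour Trbc1 may share reads, so the split between them is uncertain. Trbc1 was listed in vehicle replicates 6 (6.10) and 8 (3.13) alone.

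Trdc, the constant region of the delta chain and so a gene of gamma delta T cells, was listed at 6.86 in vehicle replicate 6, 3.86 in vehicle replicate 8 and 2.49 in BDE-47 replicate 5 (81 reads). It lies inside the alpha and delta receptor locus, at chr14:54142851-54146108. The partner chains from a list of receptor constant regions, 7 of which have rows in the data, were seen mainly in the same pair of mice. Trac, the alpha chain, stood at 7.07 in vehicle replicate 6 and 5.83 in vehicle replicate 8, with 2.09 in vehicle replicate 7 and 1.69 in BDE-47 replicate 3. Of the gamma chains, Tcrg-C1 was listed at 2.38 and 4.84 in replicates 6 and 8, and Tcrg-C4 at 6.33 and 3.93. Tcrg-C2 stood at 5.03 in replicate 6 and 0 in replicate 8, with 0.59 in BDE-47 replicate 3. Genes of both receptor types were thus listed in both mice. Vehicle replicate 6 listed 7 and vehicle replicate 8 listed 6 of the 7 constant regions, against 0 to 3 in the other 13 mice.

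Rearranged receptors also carry variable and joining segments, and 4 of 260 such entries exceeded 1 CPM. These were chosen by name after values had been seen. All 4 were listed in vehicle replicate 6: the alpha joining segments Traj18 (4.59, 375 reads), Traj49 (2.84, 111 reads) and Traj58 (2.63, 96 reads), and the gamma variable segment Tcrg-V1 (3.37, 161 reads). Traj49 was listed in vehicle replicate 8 as well (3.02, 97 reads), and no other mouse listed any of them. Tags are taken at the 3′ end, where a spliced receptor transcript carries its constant region and not its variable or joining segment.

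Cd8a and Cd4 differed between the 2 mice in opposite directions. Cd8a was listed at 6.47 in vehicle replicate 6 (1378 reads) and 3.24 in vehicle replicate 8 (113 reads) and nowhere else, a difference of 3.23 on the log2 scale. Cd8b1, the other CD8 chain, was closer to level, at 5.96 in vehicle replicate 6 and 5.47 in vehicle replicate 8, and was also listed nowhere else. Cd4 was listed at 3.48 in vehicle replicate 6 (173 reads), 6.71 in vehicle replicate 8 (1257 reads) and 2.68 in vehicle replicate 2 (95 reads), so that replicate 6 was lower than replicate 8, with a difference of -3.24. Cd4 is also transcribed by some dendritic cells and macrophages, and Cd8a by some dendritic cells. Il7r, the alpha chain of the IL-7 receptor, was nearly level between them at 5.81 and 6.24 and was listed in no other mouse. Replicate 6 exceeded replicate 8 for 7 of the 9 genes and fell short for Cd4 and Il7r.

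**Figure D2:**
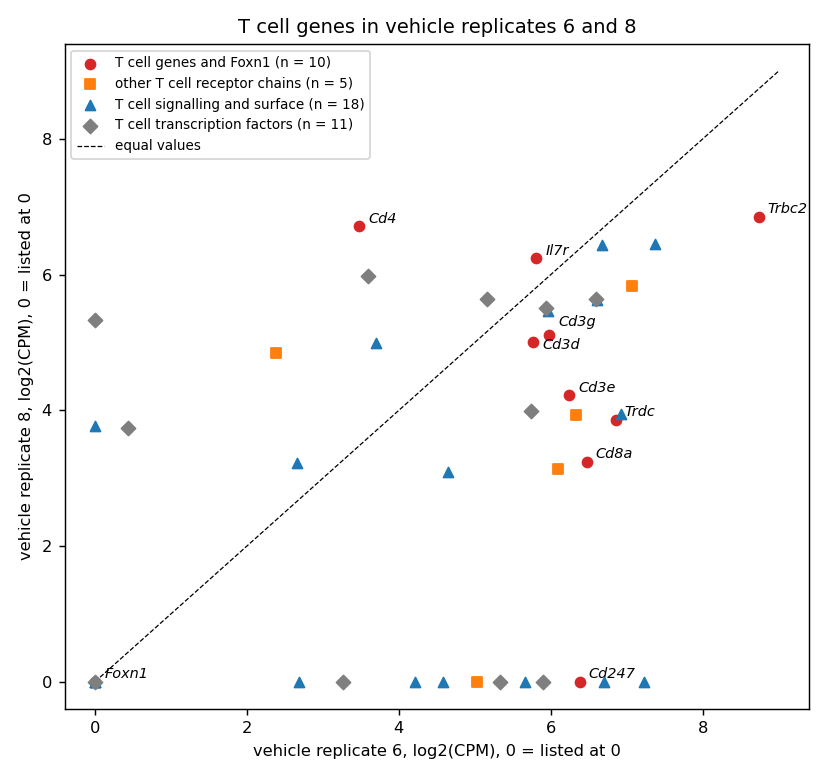
Level of each T cell gene in vehicle replicate 6 (x axis) against vehicle replicate 8 (y axis), both as log2(CPM) with 0 for genes listed at 0, and the dashed line at equal values. Red circles are the 10 genes of the report and other symbols are 3 further lists, with Cd4 well above the line, Cd8a and Trdc below it, and Cd247 on the x axis at 6.38.

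Between groups, 23 of 80 values (28.8%) exceeded 1 CPM in vehicle mice and 7 of 70 (10.0%) in BDE-47 mice. At least 1 of the genes was listed in 6 of 8 vehicle and 4 of 7 BDE-47 mice. Without vehicle replicates 6 and 8, the vehicle count was 6 of 60. Mean log2(CPM) was lower with BDE-47 for all 9 genes, and so it was for 50.7% of all genes tested. The median difference was -1.35 over the 9 genes and -0.02 over all genes. None of the 9 passed an exact permutation test of the difference in means (two-sided, 8 against 7 mice, Benjamini-Hochberg adjusted over 16314 genes), with adjusted p of 0.980 or above, and 0% of all genes passed it. Without adjustment, 0 of the 9 genes and 3.05% of all genes (498) had p under 0.05. Of the 9, only Cd247 and Trbc2 were listed in enough mice for such a p to be possible in this test. By limma, 0 genes passed after adjustment and 573 had p under 0.05 without it, none of them among the 9.

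Trbc2 had the largest difference, -2.44 (exact p = 0.101, adjusted p = 0.980). Cd4 and Cd3e, each listed in 3 vehicle mice and no BDE-47 mouse, differed by -1.61 and -1.58 (exact p = 0.200 for both). Il7r, Cd3d and Cd8a, each listed in 2 vehicle mice alone, differed by -1.51, -1.35 and -1.21, and Cd3g and Trdc, each listed in 2 vehicle mice and 1 BDE-47 mouse, by -1.25 and -0.98 (exact p = 0.467 for each of the 5). Cd247 differed by -0.12 (exact p = 0.928). None of the 1223 genes listed in exactly 2 mice and none of the 898 listed in exactly 3 reached an unadjusted p under 0.05. Among genes listed in as many mice as Cd247 (4) and Trbc2 (8), 3.41% and 3.83% did. Compared by the number of mice listing them, the genes did not pass either, with Fisher's exact p of 0.200 or above and adjusted p of 1 for each, while 0.956% of all genes had an unadjusted Fisher p under 0.05. Listing in at least 1 vehicle mouse and no BDE-47 mouse applied to 5 of the 9 genes and to 10.1% of all genes.

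The differences rested on the same pair of vehicle mice. Without vehicle replicates 6 and 8, Cd3d, Cd8a and Il7r were at 0 in every remaining mouse. Cd3g, Cd247 and Trdc then turned to higher means in BDE-47 mice, by 0.14, 0.58 and 0.36. The remaining differences were -1.04 for Trbc2, -0.45 for Cd4 and -0.36 for Cd3e.

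The pair also stood apart in genes of other T cell functions. Of 18 genes of T cell signalling and surface, vehicle replicate 6 listed 14 and vehicle replicate 8 listed 9, against 0 to 4 in the other 13 mice. Lck, the kinase that starts receptor signalling, stood at 6.93 and 3.94 in replicates 6 and 8 and at 2.22 in BDE-47 replicate 3. Lat, the adaptor downstream of it, stood at 6.61 and 5.62, and Cd2, an adhesion receptor, at 6.67 and 6.44, with no more than 1.81 for Lat or 1.84 for Cd2 in any other mouse. Thy1, which fibroblasts and endothelial cells also carry, was listed in 14 of 15 mice. Ubash3a, Trat1 and Cd40lg were at 0 in all mice.

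T cell transcription factors were listed more widely. Replicates 6 and 8 listed 9 and 7 of 11, and the other mice 2 to 6. Gata3 and Zbtb7b, which mammary epithelium and other tissues express, were listed in all 15 mice, Gata3 at 3.60 and 5.97 in replicates 6 and 8 and up to 9.01 elsewhere. Bcl11b, a factor of T cell commitment, was listed in 7 mice, at 5.94 and 5.51 in the pair. Foxp3, the factor of regulatory T cells, was at 0 in all 15. Of the 34 T cell genes in the 3 lists beside the 10, vehicle replicate 6 listed 28 and replicate 8 listed 20, with 18 listed in both, 10 in replicate 6 but not 8, and 2 in replicate 8 but not 6. The other mice listed 2 to 12. Over the receptor chain, signalling and transcription factor lists, 7, 15 and 5 genes had lower means with BDE-47 and 0, 0 and 5 had higher means, with median differences of -1.15, -0.84 and -0.08 against -0.02 over all genes. None passed the adjusted exact permutation test.

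Genes of NK and innate lymphoid cells, which develop without a thymus, were listed for 9 of 17 in vehicle replicate 6 and 11 in replicate 8, against 1 to 7 elsewhere. Nkg7, a granule protein of cytotoxic lymphocytes, stood at 7.96 and 5.55, and Ccl5, a chemokine of activated lymphocytes, at 7.82 and 9.10, with no other mouse above 3.10 for Nkg7 or 3.95 for Ccl5. Gzma, a granzyme, was at 3.84 and 4.20 in the pair and reached 5.28 in vehicle replicate 7. Areg, an epidermal growth factor family ligand that mammary epithelium also makes, was listed in 14 mice. Among NK receptor genes, Klrk1 was listed at 6.27 and 3.52 in the pair, Klrd1 at 3.67 in replicate 8 alone, and Ncr1 at 5.57 in replicate 8 and 0.37 in BDE-47 replicate 3, while Klrb1c and Klre1 were at 0 in all mice. The cytokine genes Il5 and Il13 were also at 0 in all mice. In this list 11 genes had lower and 2 higher means with BDE-47, with a median difference of -0.99, and none passed.

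Genes of the IL-7 pathway varied in how widely they were listed, with 10 and 9 of 12 in vehicle replicates 6 and 8 and 4 to 10 in the other mice. Jak1, the kinase bound to that chain, was listed in all 15 mice at 5.06 to 8.15, and Stat5a, Stat5b and Bcl2, the transcription factors and the survival gene downstream, in 14 each. Il2rg, the common gamma chain that pairs with the product of Il7r, was listed in 7 mice, at 7.93 and 6.91 in the pair and at most 4.75 elsewhere. The cytokine genes Il7 and Tslp were listed in 4 and 3 mice. Of 12 genes, 9 had lower and 3 higher means with BDE-47, with a median difference of -0.29. A single gene of the list had an unadjusted p under 0.05 (Jak3, exact p = 0.0398, adjusted p = 0.980), and none passed after adjustment.

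**Figure D3:**
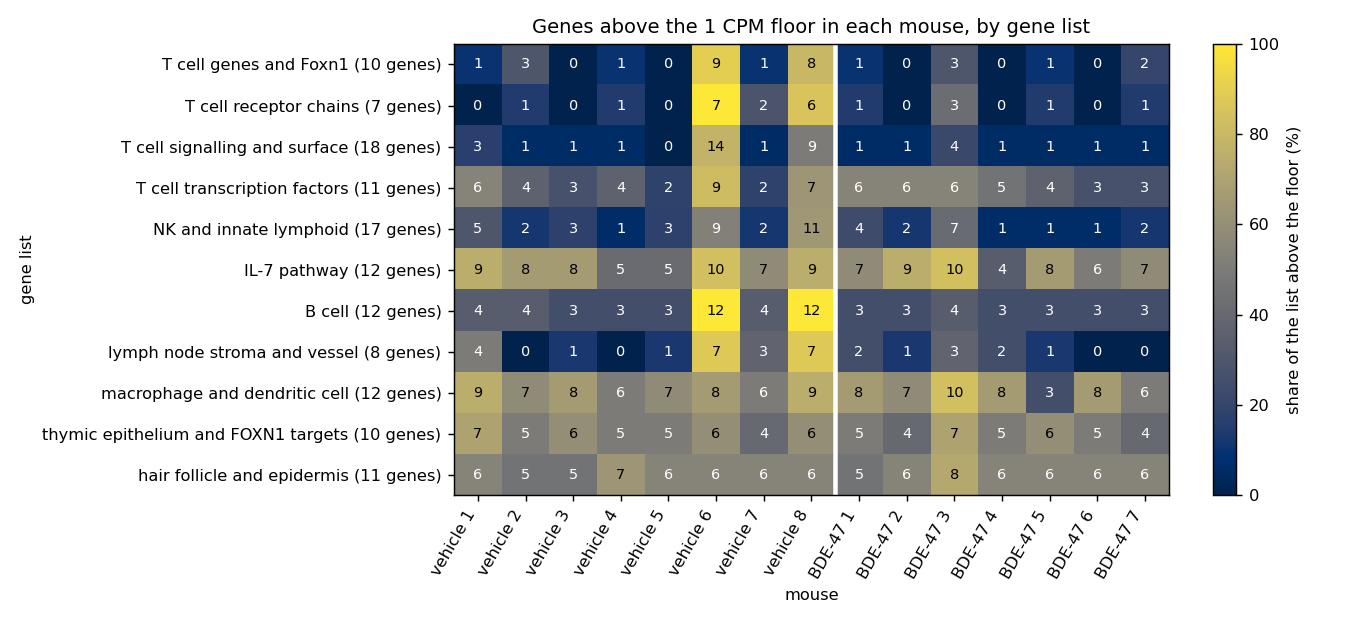
Number of genes above 1 CPM in each mouse (columns) for each gene list (rows), with colour giving the share of the list in percent and the white line between the 8 vehicle and 7 BDE-47 mice. Vehicle replicates 6 and 8 list 9 and 8 of the 10 T cell genes and all 12 B cell genes, while the thymic epithelium and hair follicle lists hold 4 to 7 and 5 to 8 genes in every mouse.

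Markers of other cells of a lymph node, which the 4th mammary fat pad normally holds, moved with the T cell genes. All 12 B cell genes were listed in both vehicle replicates 6 and 8, and 3 or 4 in every other mouse, with summed levels of 4783 and 42852 CPM against 35.96 to 558 CPM. Summed B cell levels ran from 56.8 to 42852 CPM in vehicle mice and from 35.96 to 558 CPM in BDE-47 mice. Ms4a1 (CD20) stood at 5.57 and 7.10 in the pair, and Ighm, the heavy chain of IgM, at 9.54 and 11.18 against at most 6.62 elsewhere. The defining genes Cd79a, Cd22, Pax5, Blk and Fcmr were at 0 in all of the other 13 mice. Igkc and Cd74 were listed in all 15. Of 8 genes of lymph node stroma and vessels, 7 were listed in each of the pair and 0 to 4 in the others, with summed levels of 1454 and 1887 CPM against 0 to 40.6 CPM, and 0 to 13.1 CPM in BDE-47 mice. Glycam1, a ligand on high endothelial venules, stood at 9.44 and 10.06 and at most 1.33 elsewhere, and Cxcl13, the chemokine of B cell follicles, at 6.91 and 7.76 and at most 4.31. All 12 B cell and all 8 stromal genes had lower means with BDE-47, with median differences of -1.68 and -2.21, and none passed the adjusted test. The part of lymph node tissue in the T cell gene values was not tested.

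Vehicle replicate 6 held the higher sum of the T cell genes, 975 against 405 CPM, and vehicle replicate 8 the higher sum of the B cell genes, 42852 against 4783 CPM. Igkc, the kappa light chain, made up 59.3% of that sum in replicate 6 (log2 value of 11.47) and 90.9% in replicate 8 (15.25). By gene, 8 of the 12 B cell genes were higher in replicate 8 and 4 in replicate 6, among them Pax5, the B cell identity factor, at 7.40 against 5.38, and Cd79a, a chain of the B cell receptor complex, at 5.81 against 5.35. Macrophage and dendritic cell genes were listed in all mice, for 8 and 9 of 12 genes in the pair and 3 to 10 elsewhere, with sums of 1528 and 2280 CPM against 137 to 811 CPM. Lyz2 was the largest part of both sums, at 9.87 and 10.36 in the pair against at most 7.78 elsewhere. C1qa and Siglech were also highest in the pair. Mrc1 was lower in the pair (6.26 and 6.97) than in vehicle replicates 2, 3 and 4 (7.35, 7.39 and 7.20), and Adgre1 was at 0 in both. Flt3, a receptor of dendritic cell precursors, was at 0 in all mice. C1qa, a complement gene of tissue macrophages, ranged from 5.66 to 8.11 in vehicle and 4.79 to 7.26 in BDE-47 mice. Of these genes 9 had lower and 2 higher means with BDE-47, with a median difference of -0.64, and none passed.

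**Figure D4:**
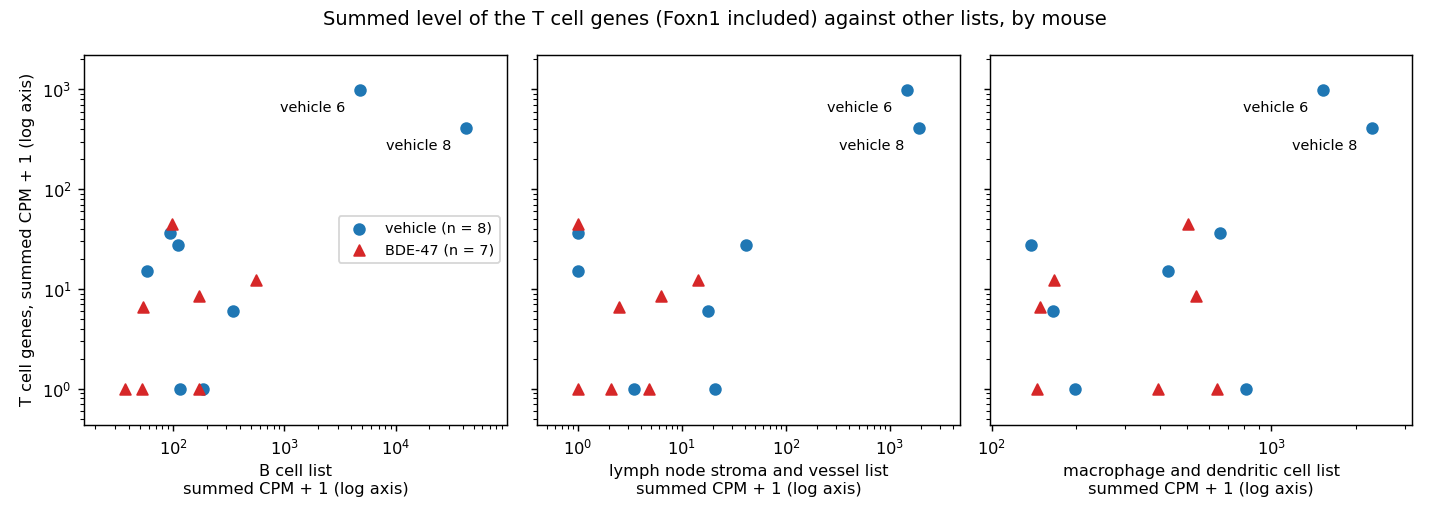
Summed level of the T cell genes and Foxn1, 10 genes (y axis), against the summed level of the B cell, lymph node stroma and vessel, and macrophage and dendritic cell lists (x axes), each as CPM + 1 on log axes, with 1 point per mouse (blue circles vehicle, n = 8, red triangles BDE-47, n = 7). Vehicle replicates 6 (975 CPM) and 8 (405 CPM) lie apart from the other 13 mice, which reach at most 44.2 CPM.

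T cell genes were also listed, at low levels, in mice with few of the lymph node markers. BDE-47 replicate 7 had the highest sum outside the pair, 44.2 CPM from Cd247 and Trbc2, with 0 of 8 stromal and vessel genes listed and 3 of 12 B cell genes. Vehicle replicate 2 followed with 35.6 CPM from Cd3e, Trbc2 and Cd4, again with 0 of 8 stromal and vessel genes. Vehicle replicate 7 reached 26.4 CPM and vehicle replicate 4 14.1 CPM from Trbc2 alone. The lowest listings, Cd3g, Cd247 and Trbc2 in BDE-47 replicate 3, came from the library with the most entries above 1 CPM, 12689 against 6932 to 11490 in the others. Vehicle replicates 3 and 5 and BDE-47 replicates 2, 4 and 6 listed none of the 10 genes. Among these, BDE-47 replicates 4 and 6 were the most deeply sequenced libraries, with 19375028 and 19575029 reads. Depth did not differ detectably between groups, with 11965760 to 16513596 reads in vehicle and 10061113 to 19575029 in BDE-47 mice (exact permutation p = 0.990).

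Genes whose levels over the 15 mice were most like those of a T cell gene were sought among 12537 genes listed in at least 3 mice. The points share libraries and many zeros, so that r rests mostly on the few listed mice. For Cd3g they were Stat4, a transcription factor of activated T and NK cells (Pearson's r = 0.999), Rasal3, a Ras regulator of leukocytes (0.998), and Cxcr2, a neutrophil chemokine receptor (0.998). For Cd4 they were Pou2af1, a B cell coactivator (0.988), Clcf1, a cytokine (0.985), and Cd86, a costimulatory ligand of antigen-presenting cells (0.962). For Cd3e they were an entry listed under the date 1-Sep in place of a symbol (0.980), Tm9sf1 (0.962) and Myo1g, a myosin of blood cells (0.953). The entry 3-Sep (0.965), Timd4, a phosphatidylserine receptor of macrophages (0.949), and Lax1, a lymphocyte adaptor (0.943), came first for Trdc. Cd247 was followed by Mphosph9, Tpbg and Kif1a (0.966, 0.960 and 0.958), none of which was listed in vehicle replicate 8. Trbc2 had no neighbour above 0.827, reached by H2-Ob, a chain of the MHC class II molecule DO, ahead of Rpl29 (0.806) and Sema4d (0.802).

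The number of genes tied to FOXN1 that the pair listed lay within the range of the other mice, but the levels of some stood apart. Of 10 genes of thymic epithelium and FOXN1 targets, vehicle replicates 6 and 8 each listed 6 and the other mice 4 to 7. Psmb11, the thymoproteasome subunit, and Aire, which drives display of tissue antigens in the thymus, were at 0 in all 15 mice. Prss16, a thymus-specific serine protease, was listed at 3.56 in vehicle replicate 1 and 3.45 in BDE-47 replicate 1, and Ccl25, a chemokine of thymus and gut, in 5 mice at up to 5.70, neither of them in the pair. Cxcl12, a chemokine of stromal cells, the epithelial keratins Krt5 and Krt8, and Ctsl, a lysosomal protease, were listed in all mice. Cxcl12 was highest in replicates 6 and 8 of the vehicle mice, at 7.82 and 9.02 against at most 7.38 elsewhere. Krt5 was lowest there, at 1.25 and 0.23 against 1.71 or above elsewhere. Cd83, also of this list, stood at 4.87 and 4.67 in the pair and at most 0.79 elsewhere. Of this list 4 genes had lower and 4 higher means with BDE-47, with a median difference of -0.03. Hair follicle and epidermis genes, for 11 names, were listed for 6 and 6 genes in the pair and 5 to 8 elsewhere, with sums of 59.5 and 38.3 CPM in the pair against 102 to 618 CPM in the other mice. Dsg4 and Hoxc13, genes of the hair shaft, were at 0 in all mice. Krt14, the basal keratin, stood at 2.19 and 1.37 in replicates 6 and 8 and ranged up to 6.37. In this list 1 gene had a lower and 8 a higher mean with BDE-47, with a median difference of 0.59. No gene of either list passed the adjusted exact permutation test.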

How the data were processed

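RNA from left 4th mammary tissue of 8 vehicle and 7 BDE-47 nude mice was sequenced from transcript 3′ ends (Lexogen QuantSeq 3′ FWD). Per the submitters' processing notes, reads were mapped with STAR 2.5.3a to GRCm38. The authors deposited log2 values of CPM per mouse, with every gene under 1 CPM at 0. Strand and multi-mapping options are not given in the sources used here. Groups and replicate numbers came from the labels. A xenograft in the region was a covariate of the study, is not in the labels and was not used.

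Of 52636 entries per mouse, 110 with a repeated name were dropped, keeping the copy with the highest total. Depth was recovered from the spacing of low values, where 100% of values came out as whole reads (within 0.1 read), giving 10061113 to 19575029 reads per mouse. No count model was run, since reads under 1 CPM are not given. Precision is limited by this floor. Counting error was not computed, and the tests rest on differences between mice. No 2 mice held identical values.

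The main test was a two-sided exact permutation test on mean log2(CPM) over all 6435 splits of the mice. It was run on 16314 genes above 1 CPM in at least 1 mouse, with Benjamini-Hochberg adjustment. The smallest possible p was 0.000155, and larger for a gene listed in few mice. Listing was compared by Fisher's exact test. The permutation step was tested on simulated data. limma 3.58.1 (R 4.3.3) with a trend, pseudocounts of 1 and 0.1, other filters, size factors, other floors, the replicate block and left-out mice were alternatives. Python 3.11.15, numpy 2.4.6, scipy 1.17.1, pandas 2.3.3 and matplotlib 3.10.9 were used. Places and promoter sequences are from RefSeq on GRCm38.p6.

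All 10 genes were named with every mouse, as was every receptor constant region listed in at least 1 mouse. From each other list the 4 genes listed in most mice were named where described, and for each of the 6 genes listed in at least 3 mice the 3 most correlated genes. Other genes were named after their values were seen. Some genes of the lists are counted but not reported here by name. The 10 genes and the lists were chosen with earlier results of these data known. Of the listed names, Trgc1, Trgc2, Trgc4 and Krt85 had no row, and Ccl21a and Ccl19 were left out because their names are repeated.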

Additional observations from a re-analysis of the deposited data

Results flagged for a closer look

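Values far from the rest of their group were sought in the T cell genes and receptor chains, in 20 groups of 7 or 8 mice over 14 genes, and 6 stood apart by the gap to the nearest other mouse. How many groups chance alone would flag among values with so many zeros was not computed. A gene listed in a single mouse of its group is flagged whatever its level, which held for every flagged value but Cd247. In BDE-47 mice these were Cd3g in replicate 3 (log2 value of 0.96), Trac in replicate 3 (1.69), Tcrg-C2 in replicate 3 (0.59) and Trdc in replicate 5 (2.49), each with the other 6 mice at 0. In vehicle mice they were Cd247 in replicate 6 (6.38, next 2.34) and Tcrg-C2 in replicate 6 (5.03, the others at 0). BDE-47 replicate 3 held 3 of the 6 values and was also the library with the most entries above 1 CPM (12689). The part of that in its values was not tested.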

How the results depend on the processing

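None of the T cell genes tested passed the adjusted test as reported or under any of 24 alternatives. Each alternative called 0 of all genes and left 332 to 573 genes with an unadjusted p under 0.05. Where only genes above 1 CPM in at least 7 mice were kept, by the exact test or limma, Trbc2 alone was tested. Without vehicle replicates 6 and 8, 6 of the genes were tested. Of the differences recomputed gene by gene, 187 kept their direction and 10 reversed. Of those in the share of mice listing a gene, 164 did not reverse and 4 did. Those that did not reverse include differences that fell to 0. These were Cd3g and Trdc without vehicle replicate 6 or 8, and Cd247 without vehicle replicate 2, 3, 4, 5, 7 or 8. Without vehicle replicates 6 and 8, Cd3g became 0.14, Cd247 0.58 and Trdc 0.36 higher with BDE-47, the share of mice listing Cd3g and Trdc became 14.3 percentage points higher, and listings in vehicle mice dropped from 23 to 6. Cd3d, Cd8a and Il7r then gave no value. With single mice left out, Cd247 ranged from -0.74 to 0.63, turning to 0.63 without vehicle replicate 6, to 0.06 without vehicle replicate 1 and to 0.04 without BDE-47 replicates 1, 2, 4, 5 or 6 in turn. Its share of mice ranged from -8.33 to 14.3 percentage points, and was -8.33 without BDE-47 replicate 3 or 7. Vehicle listings ranged from 14 (without replicate 6; 15 without replicate 8) to 23, and BDE-47 listings from 4 (without replicate 3) to 7. Floors of 2 CPM, 4 CPM and 20 reads left 23 vehicle listings and 5, 5 and 6 BDE-47 listings. Trbc2 ranged from -2.95 to -1.70 with single mice left out, with a lowest exact permutation p of 0.0530 and an adjusted p of 0.994 or above over the 15 settings. Whether replicate numbers pair the mice was not settled. Deviations of same-numbered mice correlated at only -0.02 to 0.05 over 9511 genes, yet 4 of 7 correlated best with their own number. With the replicate block, 0 of the genes passed and 332 of all genes had an unadjusted p under 0.05. Depth limits these values at 1 CPM, which is 10.1 to 19.6 reads, and 6.28% of values of well expressed genes were 0, so a T cell gene listed at 0 may have been transcribed.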
